A study of Mus musculus with 6 samples.

Results

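Macrophages sorted from wounds of young and aged mice on Day 3 expressed 78 autosomal long non-coding RNA (lncRNA) genes above a set level, out of 888 autosomal genes of this class and 15168 genes in all in the deposited table. They were chosen by the gene type given in the table (27 long intergenic, 24 antisense, 20 processed transcripts and 7 transcripts from bidirectional promoters) and by a sum of at least 300 expected counts over the 6 samples. Expected counts are estimated reads per gene, so the level of these genes was used to choose them and is only described. The sum spans both ages, so a scarce gene could reach it through the age in which it was higher. The other 810 autosomal genes of the class had a lower sum. All 78 passed the filter on low counts that precedes the test, as did 234 of the 810.

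The study compared wound healing in young and aged female C57BL/6J wild-type mice. The 3 young samples came from mice of 12 weeks and the 3 aged samples from mice of 24 months, each age with a set A, B and C. On Day 3 after full-thickness wounds were made on the back, macrophages were sorted as CD45+ CD11b+ CD64+ F4/80+ cells, with no step that removed Ly6G+ cells, and cDNA was made from polyadenylated RNA. No source says whether a sample was 1 mouse or a pool, so p-values measure only the spread between these samples. All mice carried the wound and no genetic change, and unwounded skin was not sequenced here.

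Long non-coding RNAs are long transcripts that are not translated into a known protein. Some stay in the nucleus and hold together nuclear bodies, some carry microRNAs or small nucleolar RNAs in their introns, some act on the gene beside them, and for many no function is known. In macrophages, several are switched on with the inflammatory programme after contact with bacterial products. Because bulk RNA was measured, fewer cells that express a gene and less RNA per cell cannot be told apart.

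Start regions of 4 of the lncRNA genes that differed between the ages are shown, the 3 that hold a match to a searched motif and, for contrast, 1 of the 4 that hold none. Their RefSeq start lies within 10 bases of the start in the deposited table, which held for 7 of the 12 genes called below and 28 of the 52 that matched a RefSeq promoter (build GRCm38.p6, 250 bases before to 50 bases after the start, 5′ to 3′ on the gene's strand). Capitals mark matches, on either strand, to 4 motifs that were searched: TGANTCA, bound by AP-1 factors, GAGGAAGT, bound by the macrophage factor PU.1, an NF-κB pattern (GGGA, any base, TT, any base, CC) and an interferon-type pattern (GAAA, any 2 bases, GAAA).
Mirt1, chr19:53464747-53465046, minus strand: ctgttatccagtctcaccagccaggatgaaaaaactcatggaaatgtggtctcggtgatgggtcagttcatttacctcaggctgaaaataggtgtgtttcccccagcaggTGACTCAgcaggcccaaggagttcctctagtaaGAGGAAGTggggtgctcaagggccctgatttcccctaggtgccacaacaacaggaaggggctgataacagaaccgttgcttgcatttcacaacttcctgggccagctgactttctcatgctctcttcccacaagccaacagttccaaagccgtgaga
4833407H14Rik, chr19:53460372-53460671, plus strand: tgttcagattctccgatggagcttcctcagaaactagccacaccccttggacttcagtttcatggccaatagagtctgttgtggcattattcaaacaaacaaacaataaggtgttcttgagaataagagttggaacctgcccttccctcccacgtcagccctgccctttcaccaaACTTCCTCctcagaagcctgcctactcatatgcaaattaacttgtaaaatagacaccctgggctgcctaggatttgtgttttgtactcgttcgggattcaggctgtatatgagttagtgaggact
Gm19951, chr12:99642846-99643145, plus strand: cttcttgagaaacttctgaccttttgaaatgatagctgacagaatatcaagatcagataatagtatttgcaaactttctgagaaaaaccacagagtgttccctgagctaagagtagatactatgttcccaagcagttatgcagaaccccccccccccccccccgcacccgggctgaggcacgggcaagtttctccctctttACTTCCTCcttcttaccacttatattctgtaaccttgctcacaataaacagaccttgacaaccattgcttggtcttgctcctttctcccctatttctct
AI427809 (Mexis in RefSeq), chr4:53270183-53270482, minus strand: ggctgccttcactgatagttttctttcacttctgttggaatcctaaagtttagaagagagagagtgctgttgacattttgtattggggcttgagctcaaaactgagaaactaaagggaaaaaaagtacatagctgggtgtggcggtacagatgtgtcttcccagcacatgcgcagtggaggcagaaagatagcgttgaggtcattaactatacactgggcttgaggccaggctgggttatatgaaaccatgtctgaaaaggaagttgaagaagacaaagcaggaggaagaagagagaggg
The first 3 genes were higher in aged macrophages and AI427809 was lower. The PU.1 letters began 107 bases before the start of Mirt1, 75 bases before that of 4833407H14Rik and 49 bases before that of Gm19951, and an AP-1 match began 140 bases before the start of Mirt1. None of the searched matches overlapped, and the AI427809 window held none of the 4 motifs. The PU.1 letters occurred in 3 of the 7 windows, in 4 of the 28 lncRNA windows whose start lies within 10 bases (14.3%) and in 3.2% of the 32851 RefSeq promoters of this length. The corresponding shares over the 28 windows and over all promoters were 3.57% and 7.81% for the AP-1 letters, 0 and 1.2% for the NF-κB letters and 3.57% and 3.44% for the interferon-type letters. The RefSeq promoters were not limited to genes expressed in these samples, as the lncRNA genes were, and differences between these shares were not tested. Mirt1 and 4833407H14Rik, whose names RefSeq partly merges (below), count as 2 of the windows. These matches describe letters in the windows and are not evidence of binding.

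Transcripts of 3 of the genes carry microRNAs whose mature forms are known, and these sequences are shown because the measured transcript is the precursor of the small RNA and not the small RNA itself. Capitals mark the seed (bases 2 to 8) that pairs with target RNAs, and U is written as in the RefSeq sequences.
miR-22-5p, in Mir22hg, chr11:75463734-75463755, plus strand: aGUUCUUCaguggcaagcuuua
miR-22-3p, in Mir22hg, chr11:75463772-75463793, plus strand: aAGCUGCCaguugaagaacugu
miR-15a-5p, in Dleu2, chr14:61632075-61632096, minus strand: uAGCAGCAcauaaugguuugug
miR-16-5p, in Dleu2, chr14:61631936-61631957, minus strand: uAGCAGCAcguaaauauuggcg
miR-760-3p, in Gm17494, chr3:122293615-122293634, minus strand: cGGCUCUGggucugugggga
The pair in Dleu2 shares a seed and is grouped as 1 family, whereas the arms of miR-22 and miR-760-3p each have a seed of their own. Mature microRNAs were not measured.

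Of the 78 lncRNA genes, 12 (15.4%) were called different between aged and young macrophages, 10 higher and 2 lower in aged samples, against 8.79% of all 11878 genes tested (4.59% higher and 4.2% lower). Calls needed a difference of more than 2-fold with an adjusted p-value under 0.05 (edgeR quasi-likelihood, Benjamini-Hochberg adjusted over every gene tested). Without the 2-fold limit, 17 (21.8%) had an adjusted p-value under 0.05, 10 higher and 7 lower, against 17.7% of all genes tested. In 33 (42.3%), the aged and the young samples did not overlap, against 38.2% of all genes tested. The log2 fold changes of the class ran from -1.70 to 2.39 with a median of 0.14, beside -0.02 over all genes tested. Protein-coding genes were called in 9.15% of 10591 and the 234 tested lncRNA genes with a lower sum in 8.97%. The difference in share between the class and other genes was not tested. Because genes could pass the sum through 1 age alone, the share of calls in the class is not evidence of a difference, and among the 64 genes with a sum of at least 150 in each age 6 were called, 5 higher and 1 lower. Of the 12, F830208F22Rik, E230016K23Rik, Mirt1, Gm16201 and Gm19951 were under 150 in the young and AI427809 in the aged samples.

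Long intergenic genes held 5 of the 12 calls (18.5% of 27) and processed transcripts 4 (20% of 20). Antisense genes held 2 (8.33% of 24) and bidirectional promoter transcripts 1 (14.3% of 7). The 39 genes that overlap no protein-coding gene of the table held 7 calls (17.9%), and the 39 that overlap one held 5 (12.8%). Over all genes tested, 8.79% were called, and differences between these shares were not tested. The calls rested on scarce transcripts, and leaving out young C left 1 of them (A930007I19Rik) and young B 5, leaving out aged C gave 6 calls, 5 of them among the 12, and leaving out young A gave 16 calls. With each of the 6 samples left out in turn, adjusted p-values under 0.05 were found in 6 fits for A930007I19Rik, 5 for Gm19951 and Trmt61b, 4 for E230016K23Rik, 3 for Mirt1, Gm16201, F830208F22Rik and 4632427E13Rik, and 2 for 4833407H14Rik, AI504432, Gm48065 and AI427809. A test against a 2-fold change itself called A930007I19Rik alone (1 of 78, against 0.244% of all genes tested).

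**Figure D1:**
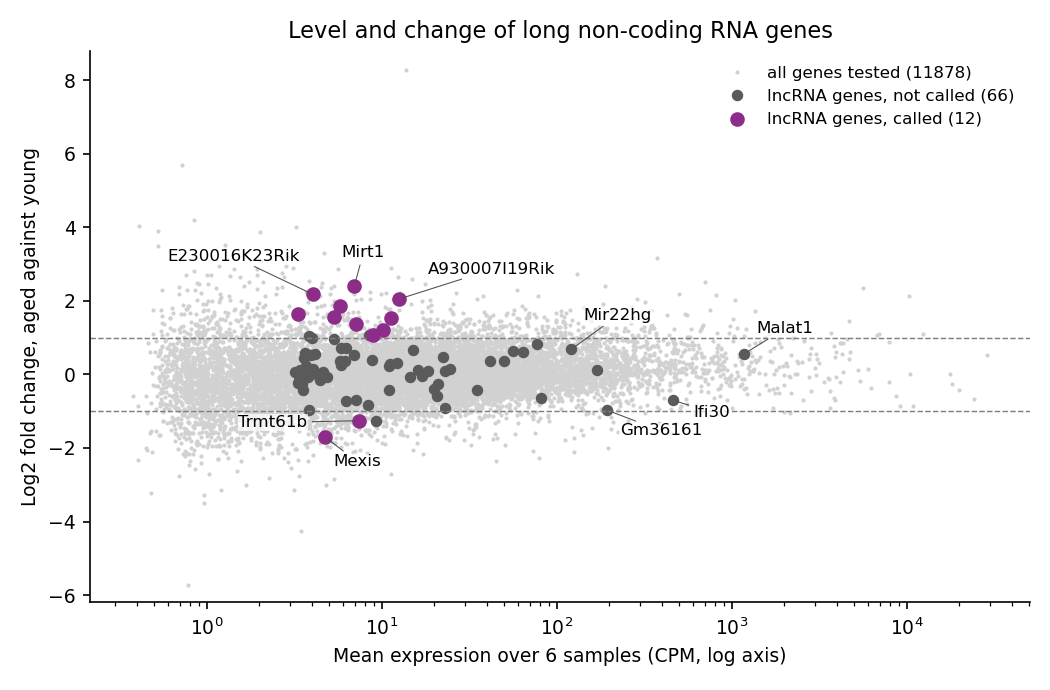
Level and change of the 78 lncRNA genes. The horizontal axis is the mean expression over the 6 samples in CPM (counts scaled to library size, log axis), the vertical axis is the log2 fold change of aged against young samples, grey points are all 11878 genes tested, dark points are the 66 lncRNA genes that were not called and purple points the 12 that were, and dashed lines mark a 2-fold change. The called genes lie at low expression, and the abundant genes (Malat1, Ifi30 and Gm36161 are labelled) lie between the dashed lines.

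A930007I19Rik, an antisense gene on chromosome 19 (chr19:29464750-29523159, minus strand, mm10), gave the lowest adjusted p-value of the class. It was measured at 5.03, 4.46 and 5.09 CPM (counts scaled to library size) in young A, B and C and at 23.4, 15.2 and 21.7 CPM in aged A, B and C. All aged samples stood well above all young samples. The mean rose from 4.86 ± 0.348 to 20.1 ± 4.35 CPM (SD, n = 3), a log2 fold change of 2.04 ± 0.23 (SE, the standard error, with an edgeR adjusted p = 0.00147). The gene body overlaps Pdcd1lg2, which encodes the T cell inhibitory ligand PD-L2, and Ric1 on the other strand. Pdcd1lg2 rose from 2.35 ± 2.07 to 12.4 ± 4.74 CPM (log2 fold change 2.38, edgeR adjusted p = 0.0189) and Ric1 from 5.46 ± 1.12 to 10.1 ± 0.988 CPM (0.88, adjusted p = 0.0322). Cd274, which encodes the related ligand PD-L1 and lies nearby on the chromosome, rose from 57.1 ± 8.52 to 133.8 ± 44.8 CPM (1.23, adjusted p = 0.0122). No exonic bases of A930007I19Rik are shared with a protein-coding gene.

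Mirt1 and 4833407H14Rik lie across each other on opposite strands of chromosome 19 (Mirt1 chr19:53443230-53464796, 4833407H14Rik chr19:53460622-53462723). Mirt1 is a transcript named for its rise after myocardial infarction. Mirt1 was at 3.04, 2.699 and 0.859 CPM in the young samples and 20.9, 4.84 and 9.39 CPM in aged A, B and C, the largest fold of the class (log2 fold change 2.39 ± 0.56 SE, edgeR adjusted p = 0.02). 4833407H14Rik was at 9.07, 2.11 and 6.08 CPM in the young and 20.3, 11.7 and 18.6 CPM in the aged samples (1.55 ± 0.43 SE, adjusted p = 0.0345). Neither gene overlapped between the ages, and aged A was the highest sample of both. Without aged A the log2 fold change of Mirt1 was 1.68 (edgeR adjusted p = 0.0527), below those of A930007I19Rik (1.92) and E230016K23Rik (2.29) in the same fit. Counts of both genes were fractional in every sample, and RefSeq lists 4833407H14Rik as its own gene and also as an older name of Mirt1, so the pair may hold shared reads. The nearest protein-coding start is that of Dusp5, a phosphatase that limits ERK signalling, 64313 and 68487 bases away, which rose from 266 ± 57.4 to 454 ± 98.4 CPM (0.77, edgeR adjusted p = 0.0358).

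The called genes E230016K23Rik and Gm16201 overlap genes of leukocyte secretion and migration. E230016K23Rik (chr11:83582056-83623693, plus strand) runs across Ccl6, a chemokine gene, on the other strand. It was nearly absent in young B, with 1.99, 0.411 and 1.98 CPM in young A, B and C, and reached 5.53, 10.0 and 4.32 CPM in the aged samples (log2 fold change 2.18 ± 0.52 SE, edgeR adjusted p = 0.0218). Ccl6 rose from 5612 ± 1018 to 10287 ± 1561 CPM (0.87, adjusted p = 0.0238). Gm16201 (chr7:139950396-139978977, plus strand) overlaps the end of Adam8, which encodes a membrane protease of myeloid cells, by 46 bases, and also overlaps Spef1l. Gm16201 was at 4.20, 0.997 and 2.18 CPM in the young and 11.5, 7.45 and 8.28 CPM in the aged samples (1.87 ± 0.43 SE, adjusted p = 0.0201). Adam8 rose from 522 ± 121 to 1134 ± 188 CPM (1.12, adjusted p = 0.0113). The ages did not overlap in any of these 4 genes. The cDNA kit does not mark strand, so reads from overlapping genes cannot be told apart where exons meet, and 29.9% of the exonic bases of Gm16201 (1037 bases, more than its overlap with Adam8) and none of E230016K23Rik are shared with protein-coding genes.

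Long intergenic genes formed the next group. Gm19951 (chr12:99643093-99647221), 79511 bases from the start of the repressor gene Foxn3, was at 2.16, 3.52 and 2.44 CPM in young and 7.22, 7.64 and 9.02 CPM in aged samples (log2 fold change 1.55 ± 0.28 SE, edgeR adjusted p = 0.00879). AI504432 (chr3:107039504-107054347) lies 3335 bases from Kcna3, the gene of a potassium channel of immune cells. It was at 3.98, 2.41 and 5.55 CPM in young and 7.08, 12.1 and 11.5 CPM in aged samples (1.37 ± 0.34 SE, adjusted p = 0.024), and Kcna3 rose from 18.9 ± 4.53 to 48.8 ± 9.33 CPM (1.37, adjusted p = 0.0067). Gm48065 (chr10:44597889-44602174), 73673 bases from the start of Prdm1, the gene of the repressor Blimp-1, was at 8.46, 4.63 and 4.16 CPM in young and 12.9, 9.87 and 13.7 CPM in aged samples (1.07 ± 0.30 SE, adjusted p = 0.0346). Prdm1 rose from 20.4 ± 3.52 to 45.2 ± 6.15 CPM (1.15, adjusted p = 0.00665).

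F830208F22Rik and 4632427E13Rik were the remaining genes that rose. F830208F22Rik, on chromosome 18 inside Pstpip2 and on its other strand, lay close to the level used for the choice, with a sum of 308.2 counts. It was at 1.55, 1.29 and 1.98 CPM in young and 6.80, 3.63 and 4.57 CPM in aged samples (log2 fold change 1.63 ± 0.35 SE, edgeR adjusted p = 0.016), and Pstpip2, which encodes a membrane-bending protein of macrophages, rose from 33.1 ± 6.07 to 49.5 ± 3.02 CPM (0.58, adjusted p = 0.0476). 4632427E13Rik (chr7:92734166-92741468, minus strand) starts 135 bases from Rab30, a vesicle transport gene that runs the other way. It was at 6.53, 5.69 and 6.14 CPM in young and 10.7, 12.3 and 19.3 CPM in aged samples (1.20 ± 0.26 SE, adjusted p = 0.0159). The young samples lay close together and aged C stood highest. Rab30 had too few counts to be tested.

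Trmt61b and AI427809 were the called genes that fell. Trmt61b carries the name of a mitochondrial tRNA methyltransferase, but the table gives it as antisense and RefSeq as lncRNA in the mouse (chr17:71557027-71598755, minus strand, across Spdya). It was at 9.62, 11.3 and 10.6 CPM in young and 3.78, 4.14 and 5.19 CPM in aged samples, a fall from 10.5 ± 0.823 to 4.37 ± 0.730 CPM (log2 fold change -1.26 ± 0.23 SE, edgeR adjusted p = 0.00995) with narrow spread in both ages. Its counts were fractional in every sample, and 13.9% of its exonic bases are shared with a protein-coding gene, so it may hold shared reads. Spdya was not tested. AI427809 (chr4:53261356-53270232, minus strand) is Mexis in RefSeq, a macrophage transcript known to promote expression of the cholesterol exporter gene Abca1 after sterol sensing. It was at 4.43, 7.74 and 9.64 CPM in young A, B and C and 1.47, 4.01 and 1.17 CPM in aged A, B and C (-1.70 ± 0.47 SE, adjusted p = 0.034). Young A and aged B were close to each other, at 4.43 and 4.01 CPM, although the groups did not overlap. Abca1, 110337 bases away, averaged 223 ± 89.7 CPM at 12 weeks and 322 ± 75.7 CPM at 24 months (0.53, adjusted p = 0.208).

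**Figure D2:**
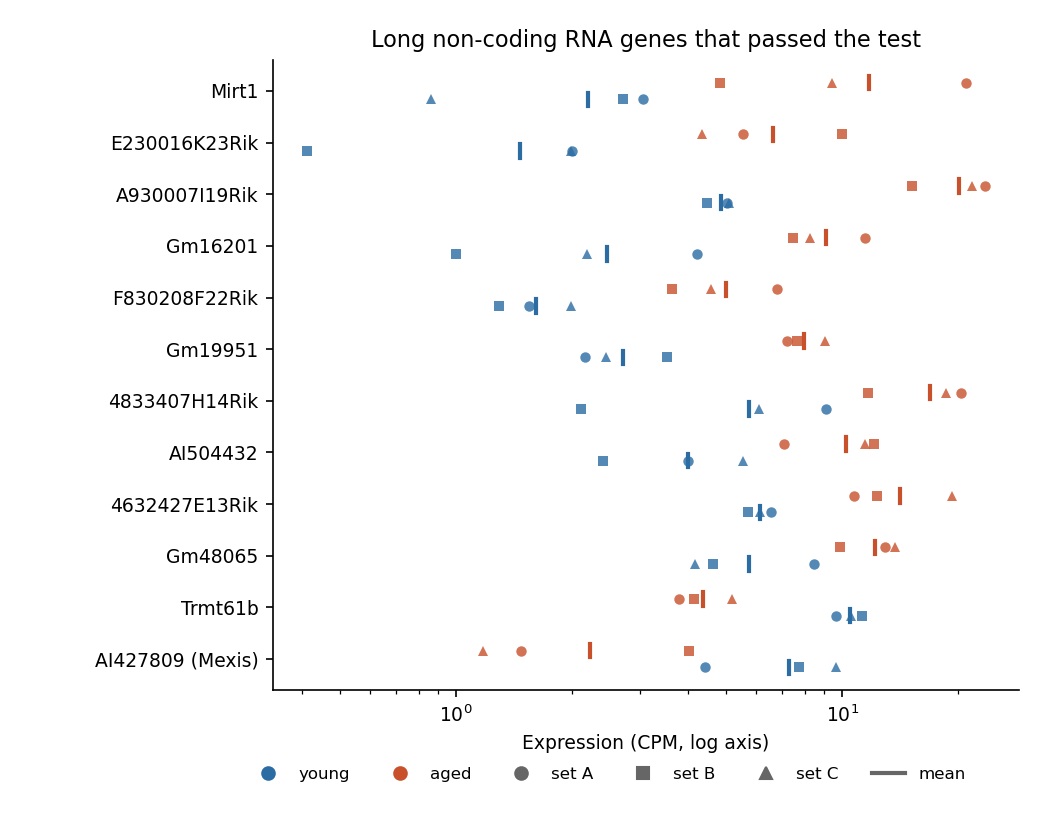
Expression of the 12 called lncRNA genes in each sample. Each symbol is 1 sample in CPM on a log axis, blue for young and red for aged, with the symbol's shape giving the set and the bar the mean of 3 samples. In every one of the 12 genes the young and aged samples do not overlap, and the gap is widest in A930007I19Rik and narrow in AI427809.

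The other 5 genes with an adjusted p-value under 0.05 all fell, by less than 2-fold. Gm36161, an intergenic gene on chromosome 13 (chr13:120010390-120018931), was at 165, 307 and 304 CPM in young and 103, 130 and 162 CPM in aged samples (log2 fold change -0.98 ± 0.26 SE, edgeR adjusted p = 0.0307). Young A lay beside the aged samples, at 165 against 162 CPM in aged C. Gm36161 also overlaps the gene Gm21370. Gm17494, the transcript across miR-760, was at 91.0, 92.8 and 113 CPM in young and 62.1, 70.6 and 56.6 CPM in aged samples (-0.65 ± 0.17 SE, adjusted p = 0.0267). The remaining members of this group were Ifi30, described below, and, chosen after their values were seen, 1810026B05Rik and D830050J10Rik. 1810026B05Rik is Chaserr in RefSeq, a transcript known to hold down its neighbour Chd2, a chromatin remodeller. It fell from 30.0 ± 6.66 to 15.98 ± 3.40 CPM (-0.91 ± 0.22 SE, adjusted p = 0.0239), while Chd2 was at 11.1 ± 3.89 and 16.7 ± 3.59 CPM (0.59, adjusted p = 0.153). The table gives 1810026B05Rik as overlapping Chd2 on the same strand. Its counts were fractional in every sample, as were those of Gm36161, Gm17494, D830050J10Rik and Ifi30. D830050J10Rik fell from 5.11 ± 1.10 to 2.61 ± 0.336 CPM (-0.97 ± 0.29 SE, adjusted p = 0.0462). Its adjusted p-value was 0.0664 in edgeR with the set letter as a block, and no fit that left out 1 sample kept it under 0.05. Of the 6 such fits, 2 kept Ifi30 and Gm17494 and 1 kept Gm36161 and 1810026B05Rik under 0.05.

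Gm20559, Gm20186 and Gm17056, also chosen after their values were seen, were called by DESeq2 and not by edgeR with TMM scaling and no block. With the set letter as a block, edgeR called Gm20559 (adjusted p = 0.0113) and Gm17056 (adjusted p = 0.0379). DESeq2 made 15 calls among the 78 in place of 12 (9.55% of all genes with a DESeq2 adjusted p-value were called). Gm20559 averaged 13.2 ± 5.01 CPM at 12 weeks and 5.44 ± 3.40 CPM at 24 months (log2 fold change -1.27, edgeR adjusted p = 0.0665), and aged C, at 9.14 CPM, lay above young A, at 8.46 CPM. Gm20186 was at 2.64 ± 0.434 and 5.30 ± 1.52 CPM (0.998, edgeR adjusted p = 0.0507, or 0.0498 and called with DESeq2 size factors) and Gm17056 at 5.46 ± 2.78 and 11.5 ± 2.55 CPM (1.07, edgeR adjusted p = 0.058). The samples of neither of the latter overlapped between the ages.

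A few transcripts held most of the lncRNA counts. Malat1 (chromosome 19, chr19:5795690-5802672), a nuclear speckle RNA found in nearly all cells, made up 38.0% of the counts on the 78 genes, Ifi30 15.1% and Gm36161 6.396%, and the 10 most abundant genes 79.5%. Beside these 3, the 10 were AI662270, Mir22hg, Gm17494, AI839979, 2900097C17Rik, Neat1 and Oip5os1. Per kilobase of exon the order of levels began with Ifi30 at 468, Malat1 at 168 and Gm36161 at 129 CPM per kb. Neat1, with the greatest annotated exonic length of those of the 10 that have one (20771 bases), ranked 29 at 2.72 CPM per kb. The length counts all annotated exons of a gene, so the level per kb is understated where only a shorter transcript was present. Exon lengths came from GENCODE M21 for 72 of the 78 genes, which leaves out Oip5os1. AI662270 averaged 162 ± 17.3 CPM at 12 weeks and 177 ± 8.58 CPM at 24 months (log2 fold change 0.13, edgeR adjusted p = 0.585). AI839979 was at 43.5, 50.3 and 71.7 CPM in young and 54.9, 102.03 and 139 CPM in aged samples (0.84, edgeR adjusted p = 0.0821, DESeq2 adjusted p = 0.0328), and aged A lay within the young range.

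Ifi30 encodes the lysosomal thiol reductase GILT, which unfolds antigens for presentation. The table gives it as a processed transcript and RefSeq as protein-coding, as RefSeq also does for Spata5l1 and Gm37494. Ifi30 was at 523, 594 and 586 CPM in young and 392, 320 and 337 CPM in aged samples, a fall from 568 ± 38.8 to 350 ± 37.4 CPM (log2 fold change -0.70 ± 0.16 SE, edgeR adjusted p = 0.0208). The ages did not overlap. RefSeq gives 57 of the 78 as lncRNA, 1 as a pseudogene and does not match 17.

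Together the 78 genes held 0.334%, 0.309% and 0.290% of all counts in young A, B and C and 0.307%, 0.308% and 0.296% in aged A, B and C. The difference of -0.00749 percentage points was smaller than the spread of the young samples (0.311% ± 0.0221 against 0.303% ± 0.00648, two-sided exact permutation test, p = 0.7). Malat1 held 0.101% ± 0.0202 of counts in young and 0.131% ± 0.00893 in aged samples and Ifi30 0.0603% ± 0.00384 and 0.0328% ± 0.00332, and in both the samples of the ages did not overlap (exact permutation p = 0.1 each, the smallest that 3 samples against 3 can give). Without Malat1 and Neat1 the share was 0.205% ± 0.00431 in young and 0.166% ± 0.00823 in aged samples (exact permutation p = 0.1), a difference of -0.0387 percentage points. When Ifi30 and the other genes that RefSeq gives as protein-coding were also left out, it was 0.144% ± 0.00265 and 0.132% ± 0.00535 (exact permutation p = 0.1), a difference of -0.0112 percentage points. On the CPM scale, which corrects for library composition, the sum over the 78 genes was 2921 ± 86.4 CPM at 12 weeks and 3230 ± 83.1 CPM at 24 months without overlap (exact permutation p = 0.1), so the direction of the class total turned with the scaling.

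**Figure D3:**
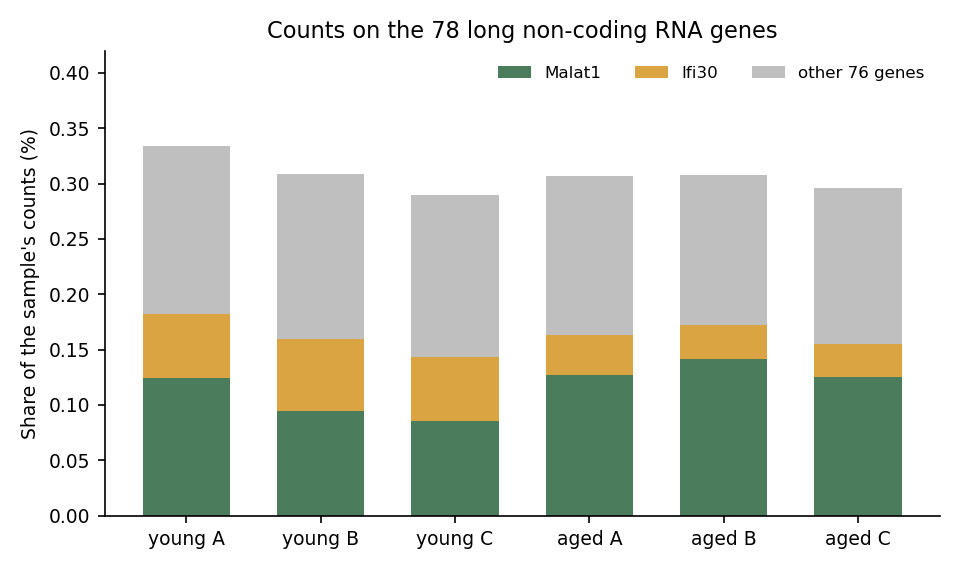
Share of each sample's counts on the 78 lncRNA genes. Bars give the percent of expected counts in 1 sample, split into Malat1 (green), Ifi30 (yellow) and the other 76 genes (grey). The totals lie between 0.290% and 0.334%, with a larger Malat1 part and a smaller Ifi30 part in all aged samples.

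Members with a known role were taken from 6 lists, of nuclear RNAs, microRNA hosts, small nucleolar RNA hosts, immune lncRNAs, growth and p53 lncRNAs and imprinted lncRNAs. Of the 10 genes that the lists share with the 78, Mirt1 was called (10%, against 8.79% of all genes tested), and none of the small nucleolar RNA hosts or imprinted genes were among the 78. Mirt1 was placed in the microRNA host list but no microRNA of GENCODE M21 lies in it on its strand.

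The list of nuclear RNAs shares 4 genes with the 78, among them 2900097C17Rik, which acts in the cytoplasm. Each had a higher mean in aged samples, and none of the 4 passed the edgeR test. Malat1 was at 1117, 871 and 861 CPM in young A, B and C and 1355, 1439 and 1384 CPM in aged A, B and C (log2 fold change 0.55 ± 0.18 SE, edgeR adjusted p = 0.0544). The ages did not overlap, and DESeq2 gave an adjusted p-value of 0.0107, as it gave 0.049 for Neat1 and 0.0462 for 2900097C17Rik, all under 2-fold. Gm37376, an antisense model over Malat1, was at 506 ± 99.7 and 733 ± 18.2 CPM (0.53, edgeR adjusted p = 0.0676), and without strand its reads cannot be told from those of Malat1. Neat1 (chr19:5824708-5845478), the scaffold of paraspeckles, was at 39.8, 46.5 and 46.4 CPM in young and 48.2, 64.1 and 93.4 CPM in aged samples (0.63 ± 0.23 SE, edgeR adjusted p = 0.0782). 2900097C17Rik, known as Norad, a cytoplasmic decoy of PUMILIO proteins that keeps chromosomes stable, was at 65.0, 37.7 and 50.9 CPM in young and 66.1, 87.8 and 78.1 CPM in aged samples (0.60, adjusted p = 0.0761). Young A and aged A were almost level in this gene. Oip5os1, known as Cyrano, was at 40.4, 39.2 and 51.7 CPM in young and 37.0, 66.5 and 66.0 CPM in aged samples (0.37, adjusted p = 0.291), and aged A lay below all young samples.

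Beside Mirt1, the microRNA host list held 2 of the 78, Mir22hg and Dleu2, and neither was called. Mir22hg (chr11:75461539-75466676), the transcript that carries the miR-22 arms shown above, was at 169, 54.1 and 55.2 CPM in young A, B and C and 298, 56.2 and 93.2 CPM in aged A, B and C. Set A was by far the highest of either age, and the spread within an age (92.9 ± 66.2 CPM in young, 149 ± 130 CPM in aged) exceeded the difference between ages (log2 fold change 0.68 ± 0.59 SE, edgeR adjusted p = 0.44). Within each set the aged sample was the higher one. Leaving out aged A, with young A kept, turned the sign to -0.31 (adjusted p = 0.678). Mir22hg overlaps Tlcd2 on the same strand, with 10.7% of its exonic bases shared, and Tlcd2 was at 2.88 ± 0.969 and 6.01 ± 3.38 CPM (1.05, adjusted p = 0.109). Dleu2 (chr14:61602839-61682373), the host of miR-15a and miR-16, which restrain the cell cycle, was at 8.85, 6.22 and 7.99 CPM in young and 8.62, 8.09 and 13.3 CPM in aged samples (0.38 ± 0.26 SE, adjusted p = 0.33).

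Among the immune lncRNAs, Ptgs2os2 is lincRNA-Cox2, a regulator of inflammatory genes that lies 64917 bases from the start of Ptgs2, the gene of cyclooxygenase 2. Ptgs2os2 was at 2.99, 2.23 and 2.25 CPM in young and 7.36, 2.36 and 5.74 CPM in aged samples, and aged B lay within the young range (log2 fold change 1.04 ± 0.41 SE, edgeR adjusted p = 0.0974). Without aged B its adjusted p-value was 0.0226. Ptgs2 rose from 399 ± 169 to 942 ± 388 CPM (1.24, adjusted p = 0.0367). Morrbid, which prolongs the life of myeloid cells by holding down the death gene Bcl2l11, was at 4.98, 3.23 and 5.09 CPM in young and 8.48, 5.73 and 7.54 CPM in aged samples (0.71 ± 0.28 SE, adjusted p = 0.1). AW112010, an interferon- and LPS-responsive transcript, was at 21.3, 22.3 and 31.1 CPM in young and 20.7, 9.04 and 20.01 CPM in aged samples (-0.59 ± 0.30 SE, adjusted p = 0.19). Neither of these genes overlapped between the ages, yet in AW112010 the margin between young A and aged A was narrow.

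**Figure D4:**
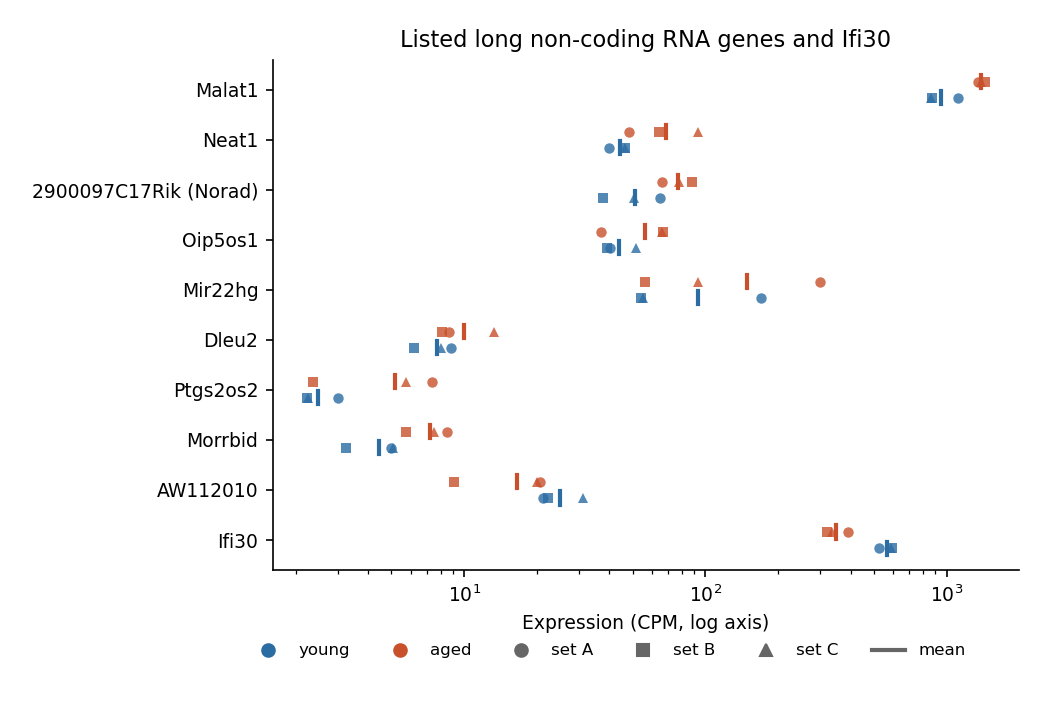
Expression of 9 listed lncRNA genes and Ifi30 in each sample. Each symbol is 1 sample in CPM on a log axis, blue for young and red for aged, with the shape giving the set and the bar the mean of 3 samples. Set A of both ages stands apart in Mir22hg, and aged B lies with the young samples in Ptgs2os2.

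Position beside a protein-coding gene was not used to choose the genes. Of the 78, 35 overlap a protein-coding gene on the other strand, 4 overlap one on the same strand, 7 start head to head within 1 kb of one, 5 have a start of one within 10 kb, 14 within 50 kb and 13 have none within 50 kb. For 46 of the 51 genes with a neighbour within 10 kb the neighbour was tested too, and in 28 of these pairs (60.9%) both log2 fold changes had the same sign. Across these pairs, Pearson's r was 0.54 and Spearman's rho 0.44. Farther away, the sign was that of the nearest protein-coding gene in 5 of 12 tested pairs within 50 kb (41.7%, Pearson's r -0.17). With none within 50 kb it was so in 9 of 13 (69.2%, Pearson's r 0.36). Of the 78 lncRNA genes, 51 had a positive log2 fold change. Whether agreement in sign depended on distance was not tested. The pairs were measured in the same libraries, and overlapping pairs can share reads, so the correlation is given as a description. Of the 46 tested neighbours within 10 kb, 14 had an adjusted p-value under 0.05, 13 higher and 1 lower in aged samples. Over all genes tested 17.7% did, 1156 higher and 947 lower. The lncRNA gene had the same sign in 12 of these 14 pairs and passed the same threshold in 5, which were A930007I19Rik with Pdcd1lg2, E230016K23Rik with Ccl6, Gm16201 with Adam8, F830208F22Rik with Pstpip2 and AI504432 with Kcna3. Of these, E230016K23Rik, Gm16201 and F830208F22Rik had a sum under 150 counts in the young samples and so reached the level of choice through the aged samples.

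In the other pairs with a changed neighbour the lncRNA gene did not pass, and those named here were chosen after their values were seen. 4833438C02Rik overlaps Nfkb2, an NF-κB subunit gene that rose from 65.0 ± 10.9 to 145 ± 19.05 CPM (log2 fold change 1.15, edgeR adjusted p = 0.00561), and was itself at 18.8 ± 4.73 and 26.1 ± 1.90 CPM (0.47, adjusted p = 0.138). Gm47863, E230013L22Rik and Gm49774 had log2 fold changes of 0.46, 0.56 and 0.67, beside Jdp2 (0.74), an AP-1 partner, Rab20 (0.81), a phagosome GTPase, and Hmga1 (0.90), a chromatin protein. Their edgeR adjusted p-values were 0.273, 0.184 and 0.0806, and their neighbours' 0.02, 0.0193 and 0.0339. Gm26782 had a log2 fold change of -0.70 (adjusted p = 0.0764) across Tep1, the 1 neighbour that fell (-1.001, adjusted p = 0.0326). Map2k3os starts 166 bases from Map2k3, the gene of a kinase that activates p38, and runs the other way. Map2k3 rose from 232 ± 105 to 507 ± 50.0 CPM (1.13, adjusted p = 0.0261), whereas Map2k3os was at 12.5, 12.6 and 27.0 CPM in young and 12.2, 13.8 and 23.9 CPM in aged samples (-0.06 ± 0.35 SE, adjusted p = 0.926). Set C was the highest of Map2k3os in both ages. 5830432E09Rik, inside Ptpre on its other strand, was also near 0 (-0.007, adjusted p = 0.989), while Ptpre rose (1.23, adjusted p = 0.00995). Spata5l1 had a log2 fold change of 0.11 (adjusted p = 0.868) beside AA467197 (1.30, adjusted p = 0.0146). Gm26740 had 0.52 (adjusted p = 0.383) across Raet1e (0.83, adjusted p = 0.0297). The 6 head to head pairs that could be tested had the same sign in 4, with a Pearson's r of -0.87 and a Spearman's rho of -0.66 across the pairs, and the 32 pairs overlapping on the other strand in 19.

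**Figure D5:**
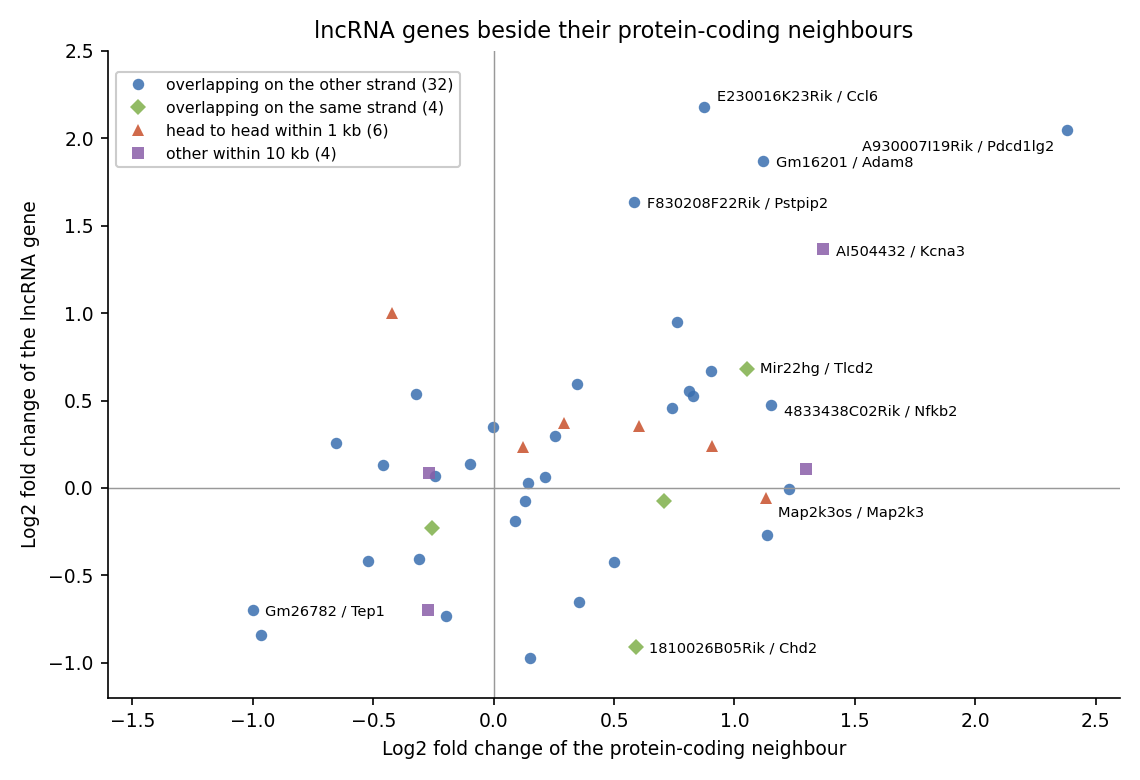
Change of lncRNA genes beside that of their protein-coding neighbours. The axes are the log2 fold changes of aged against young samples of the neighbour (horizontal) and the lncRNA gene (vertical), 1 point for each of 46 pairs within 10 kb, with colour and shape giving the position of the pair. A930007I19Rik with Pdcd1lg2 lies at the upper right, and Map2k3os lies near 0 although Map2k3 rose.

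At the level used for the choice, the genes just inside were Gm43305 with a sum of 305.4 counts (log2 fold change 0.07) and F830208F22Rik with 308.2 (1.63), and those just outside were 3110056K07Rik with 299 (-0.08) and 2010320M18Rik with 292 (-0.43). Counts more than 0.01 from a whole number occurred in at least 1 sample in 40 of the 78. Of the 78, 14 share over 20% of their exonic bases with a protein-coding gene, and without those 11 of 64 were called. With Mirt1 and 4833407H14Rik taken as 1 gene and the genes that RefSeq gives as protein-coding left out, 11 of 74 were called. Over all genes tested, 8.79% were called. As the sum could be reached through 1 age alone, these shares are not evidence of a difference either.

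The 6 libraries held between 15270103 and 17927483 counts, and 1 count corresponded to 0.0553 to 0.0701 CPM. All 9 macrophage markers were tested, with a summed level of 35601 to 51486 CPM in young and 33990 to 42367 CPM in aged samples. Markers of other cell types were present at lower sums. The 14 neutrophil markers in the table (of 16) summed to 717 to 1218 CPM in young and 926 to 1584 CPM in aged samples, with Camp and Mpo not among the genes of the table. Of the 13 neutrophil markers tested, 4 (30.8%) had an edgeR adjusted p-value under 0.05, all higher in aged samples. Keratinocyte markers (10 of 11) summed to 2.0 to 3.5 CPM in young samples and 9.9, 191 and 3.8 CPM in aged A, B and C, and fibroblast markers (9 of 9) to 38.9 to 62.9 CPM and 20.5 to 189 CPM, highest in aged B. Dendritic cell markers (6 of 7) summed to 16.4 to 55.0 CPM in young and 30.3 to 93.9 CPM in aged samples, mast cell markers (6 of 6) to 25.6 to 94.9 and 0.7 to 64.2 CPM, T and NK cell markers (9 of 10) to 6.0 to 9.2 and 3.7 to 14.9 CPM and endothelial markers (6 of 6) to 10.6 to 11.7 and 26.1 to 31.2 CPM. Without aged B, 15 lncRNA genes were called, 10 of them among the 12. The part of these cells in the lncRNA values was not tested.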

How the data were processed

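RNA of sorted Day 3 wound macrophages was sequenced in 3 young and 3 aged samples (SMART-Seq v4, which does not mark strand). The authors aligned reads with STAR 2.7.3a to mm10 in Partek Flow and deposited expected counts per gene, without normalisation. They give Ensembl transcripts 102 as the annotation. Gene types and coordinates in the table were those of GENCODE M21 for 97.2% of genes and for 71 of the 78 lncRNA genes in start and end. Which annotation the counts were made on is therefore not certain. The authors' table of DESeq2 fold changes and p-values was not used.

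Expected counts were rounded and fitted with edgeR 4.0.16 in R 4.3.3 (TMM scaling, filterByExpr, quasi-likelihood test of aged against young without a block, Benjamini-Hochberg adjustment over 11878 genes), and calls needed more than 2-fold with adjusted p-values under 0.05. CPM used TMM-scaled library sizes. The fit was tested on simulated data. DESeq2 1.42.0, other scalings, filters and thresholds, blocking on the set letter and leaving out each sample were alternatives. Class totals were compared with an exact permutation test. Exon lengths came from GENCODE M21, neighbours from the table where its spans match GENCODE M21, sequences from RefSeq (GRCm38.p6) and plots from matplotlib 3.10.9.

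Genes named were members of the lists, the called genes, the 10 most abundant, those nearest the sum of 300 and their protein-coding neighbours. Genes added with their values known are marked so, and Ric1, Cd274, Abca1, Chd2, Ptgs2, Tlcd2, Gm37376, Itgam and Adgre1 were added in the same way. The lncRNA genes and the lists were chosen with earlier results of these data known.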

Additional observations from a re-analysis of the deposited data

How the results depend on the processing

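The 12 called lncRNA genes became 15 with DESeq2, 13 with its size factors in edgeR, 12 when low counts were not filtered and 11 when each sample had to hold 10 counts. Those of DESeq2 and of its size factors included all 12. The 2 exclusions of genes added after seeing the data left 11 calls each, and a sum of at least 150 in each age, also added, left 6 (of 64). The test against a 2-fold change called 1, the genes that overlap no protein-coding gene held 7 (of 39) and those with a sum of at least 1000 held 2 (of 30). Over all genes tested, the main fit called 8.79% and the test against a 2-fold change 0.244%. Leaving out 1 sample gave 1 to 16 calls and 0 to 2 of the listed genes. The difference (aged minus young) in the share of counts on the class moved from -0.00749 to -0.0387 percentage points without Malat1 and Neat1. It was 0.0201 without the genes that RefSeq gives as protein-coding (added after seeing the data) and 0.0309 on the CPM scale. With 1 sample left out, the difference ran from -0.0179 to 0.00409. Among the 38 of the 78 genes for which these values were tabulated, log2 fold changes whose sign turned with 1 sample left out were those of Mir22hg (-0.31 to 1.46), Map2k3os (-0.41 to 0.41) and Gm43305 (-0.12 to 0.45). Same-lettered samples deviated from their age means with correlations of 0.18 (A), -0.02 (B) and 0.11 (C), so the letters were not taken to pair the samples. With the letter as a replicate block, edgeR called 14 lncRNA genes. Beside all 12 these were Gm20559 (-1.38, adjusted p = 0.0113) and Gm17056 (1.15, adjusted p = 0.0379). Of the listed genes among the 78, Mirt1 alone was called (adjusted p = 0.0171). Under the block, AI839979 had an adjusted p-value of 0.0283 (0.77) and Mir22hg of 0.0853 (0.55). D830050J10Rik, at 0.0664 (-0.95), was no longer under 0.05, and Snhg17, at 0.0512, lost its call. A single count was 0.0553 to 0.0701 CPM, and the part of depth in the calls was not tested. The cause of these shifts was not tested.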

Other observations

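Named lncRNA genes with a sum under 300 counts, or with another gene type in the table, were not among the 78 but were fitted with them, and all values here are from that edgeR fit with Benjamini-Hochberg adjustment. Hosts of small nucleolar RNAs, whose introns carry guides for the modification of ribosomal RNA, were scarce. Of 9 tested, 7 had a negative and 2 a positive log2 fold change (median -0.33, beside -0.02 over all genes tested), and 3 were called, each lower in aged samples (33.3%, against 8.79% of all genes tested). Genes this scarce could pass the filter on low counts through 1 age alone, so this share is not evidence of a difference. Snhg15 was at 3.32, 5.98 and 5.42 CPM in the young and 1.05, 1.15 and 0.618 CPM in the aged samples (log2 fold change -2.38, adjusted p = 0.00656), and all 6 fits that left out 1 sample kept it under 0.05. Snhg16 was at 1.05, 2.699 and 1.59 CPM in the young and 0, 0.318 and 0.124 CPM in the aged samples (adjusted p = 0.0166, under 0.05 in 3 of those fits), so its aged level rested on very few counts. Snhg17 averaged 2.12 ± 0.291 and 0.752 ± 0.171 CPM (SD, n = 3, log2 fold change -1.48, edgeR adjusted p = 0.0343, under 0.05 in 0 of those fits). Gas5, the growth arrest transcript of this group, averaged 2.59 ± 1.13 and 2.06 ± 0.468 CPM (-0.33, adjusted p = 0.595).

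Ptgs2os, the antisense transcript beside Ptgs2, was at 0.387, 0.235 and 0.198 CPM in the young and 1.40, 1.27 and 2.84 CPM in the aged samples (log2 fold change 2.704, adjusted p = 0.0141). Mirt2, which shares its naming with Mirt1, was at 10.9, 12.6 and 10.0 CPM in the young and 39.4, 13.8 and 24.3 CPM in the aged samples (1.20, adjusted p = 0.0319). The ages did not overlap in either gene, and with Mirt1 they made up the 3 calls among 16 immune lncRNAs tested (18.8%, against 8.79% of all genes tested, median 0.67). A gene as scarce as Ptgs2os could pass the filter on low counts through the aged samples alone, so this share is not evidence of a difference. Of the 6 fits with 1 sample left out, 3 kept Ptgs2os under 0.05 and 1 kept Mirt2. Mir155hg, the host of miR-155, averaged 1.47 ± 0.907 and 3.01 ± 1.07 CPM (1.04, adjusted p = 0.199), and the 5 genes tested from the microRNA host list held 1 call, Mirt1 (20%, median 0.68), in which no microRNA is annotated on its strand. Of the 6 nuclear RNAs tested, 0 were called by edgeR or DESeq2, although 5 had an unadjusted p-value under 0.05, as did 4101 of all 11878 genes tested (median 0.61), and Tug1 averaged 18.2 ± 5.56 and 32.6 ± 8.15 CPM (0.84, adjusted p = 0.0450), under the 2-fold limit. The 10 growth and p53 lncRNAs tested held 1 call, Snhg15 (10%, near the share of all genes, median 0.38). Of 3 imprinted lncRNAs tested, 0 were called by edgeR or DESeq2 and 2 had an unadjusted p-value under 0.05, again beside 4101 of 11878. Kcnq1ot1 had a log2 fold change of 1.09 (adjusted p = 0.0739), Airn of -1.38 (adjusted p = 0.0538) and Peg13 of -0.09.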
